A study of Homo sapiens with 4 samples.

Results

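Chemokines and their receptors were followed in THP1 cells after knockdown of the leukemia fusion gene MLL-AF9. Members were the genes whose name in the deposited intensity table was that of a chemokine ligand (CCL, CXCL, IL8, XCL or CX3CL1) or of a chemokine receptor (CCR, CXCR, CCRL, XCR1 or CX3CR1). The array carried probes for 63 such names, and 46 of them had a probe with a quality weight above 0 on all 4 arrays. These 46 genes stood among 17938 genes with a symbol in the whole comparison and were measured by 60 probes. Each gene is given by its brightest probe unless stated otherwise.

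THP1 is a monocytic acute myeloid leukemia cell line, and its MLL gene is fused to AF9. The cells received 50 nM siRNA 3 times, on days 0, 3 and 6, serum was reduced from day 6, and RNA was taken on day 8. Knockdown samples had received siRNA-A or siRNA-B, both directed at the fusion point of the MLL-AF9 transcript, and control samples had received the non-targeting control siRNA-1 or control siRNA-2. All groups therefore shared the cell line, the transfection and the reduced serum. Each sample was RNA pooled from 5 independent experiments and filled 1 single-colour array, giving 2 arrays per group. The 4 arrays shared 1 slide, with the knockdown samples next to each other at positions 1 and 2 and the control samples at 3 and 4. Treatment and slide position cannot be told apart.

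Chemokines are small secreted proteins that direct the movement of leukocytes, and they are named CC, CXC, XC or CX3C after the spacing of their first cysteines. They act through G protein-coupled receptors, which lower cyclic AMP through inhibitory G proteins and activate phosphoinositide 3-kinase, Src-family kinases and small GTPases at the leading edge of the cell. Monocytes are known for CCR2, the receptor of CCL2 that draws them out of the bone marrow, and myeloid leukemia cells for CXCR4, the receptor of CXCL12 that holds them there.

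Median log2 intensity was between 8.56 and 8.65 on the 4 arrays, and 71.2% of spots were well above background with siRNA-A, 70.0% with siRNA-B and 74.3% with either control siRNA. No gene name on the array was that of the fusion, and MLL and MLLT3 were measured by probes named for the single gene. The MLLT3 probe A_23_P216693, for the gene that encodes AF9, gave log2 intensities of 6.82 with siRNA-A, 6.87 with siRNA-B, 7.59 with control siRNA-1 and 7.61 with control siRNA-2, a log2 fold change of -0.76 (limma, adjusted p = 0.0639), which passed the unadjusted threshold used below. Another MLLT3 probe, A_24_P192627, passed it at -0.63, and none of 4 MLL probes was called. The brightest MLL probe, A_33_P3390570, was lower on both knockdown arrays than on both controls, with a log2 fold change of -0.41. The other MLL probes had overlapping groups and log2 fold changes between -0.085 and 0.048. Of 10 monocytic markers 8 had an analysed probe (not LYZ and FCGR1A), all of them well above background on every array. One of these, the monocyte surface receptor CD14, was called higher after knockdown, with log2 intensities of 8.39, 8.71, 7.52 and 7.47 in the order siRNA-A, siRNA-B, control siRNA-1 and control siRNA-2 (limma, adjusted p = 0.0355). The other 7 were not called, and 5 of the 8 had negative log2 fold changes, with a median of -0.070. Both knockdown arrays were below both controls in 3 (MPO at -0.22, CD68 at -0.15 and CD4 at -0.13) and above them in 2 (CD14 and CSF1R at 0.19). Over all genes the groups did not overlap in 36.2%, and limma called 1.33%. No marker of T cells, B cells, erythroid, epithelial, fibroblast or endothelial cells was called, although some, among them HBB and CDH1 with log2 fold changes of 0.39 and 0.36, had unadjusted p below 0.05. HBB and CDH1 were each well above background on 1 knockdown array and on 0 control arrays.

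Knockdown of MLL-AF9 was accompanied by higher transcript levels of 2 of the 46 members, CCL2, a chemoattractant of monocytes, and IL8, a chemoattractant of neutrophils that is now named CXCL8. No member was called lower on the deposited intensity with all arrays. In alternative settings, CCL14 was called lower on the background-subtracted signal (-1.78 scaled and -1.81 unscaled, against -0.25 on the deposited intensity), although not well above background on either knockdown array, and CCL24, CCL5 and CXCR3 on omission of a knockdown array. The call was made by limma at an unadjusted p under 0.005, the threshold of the study's methods, and p printed below are adjusted by Benjamini-Hochberg over all 26219 probes. Over all genes the same rule called 0.630% higher, 0.702% lower and 1.33% in either direction. After adjustment CCL2 was the 1 member with an adjusted p under 0.05, against 0.123% of all genes. This held in 4 of 13 alternatives and was lost in 9, where the adjusted p of CCL2 in limma was between 0.251 and 1: the 3 other normalizations, both background-subtracted signals and the omission of any array. At an unadjusted p under 0.05 there were 5 members higher and 2 lower, against 3.26% and 4.74% of all genes.

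Differences were small in most members. Log2 fold changes ran from -0.46 to 1.50, and 37 of 46 were smaller than 0.3 in size. The median was -0.0094 over the members and -0.021 over all genes, and 23 members had a positive and 23 a negative value. The knockdown arrays lay both above or both below the control arrays in 21 members, and the groups overlapped in 25. Over all genes the groups did not overlap in 36.2%. By the study's criteria for single spots, 3 members had at least 1 spot called (CCL2, IL8 and CXCR4), against 1.84% of all genes. In this bulk RNA fewer cells of a kind and less RNA per cell cannot be told apart.

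**Figure D1:**
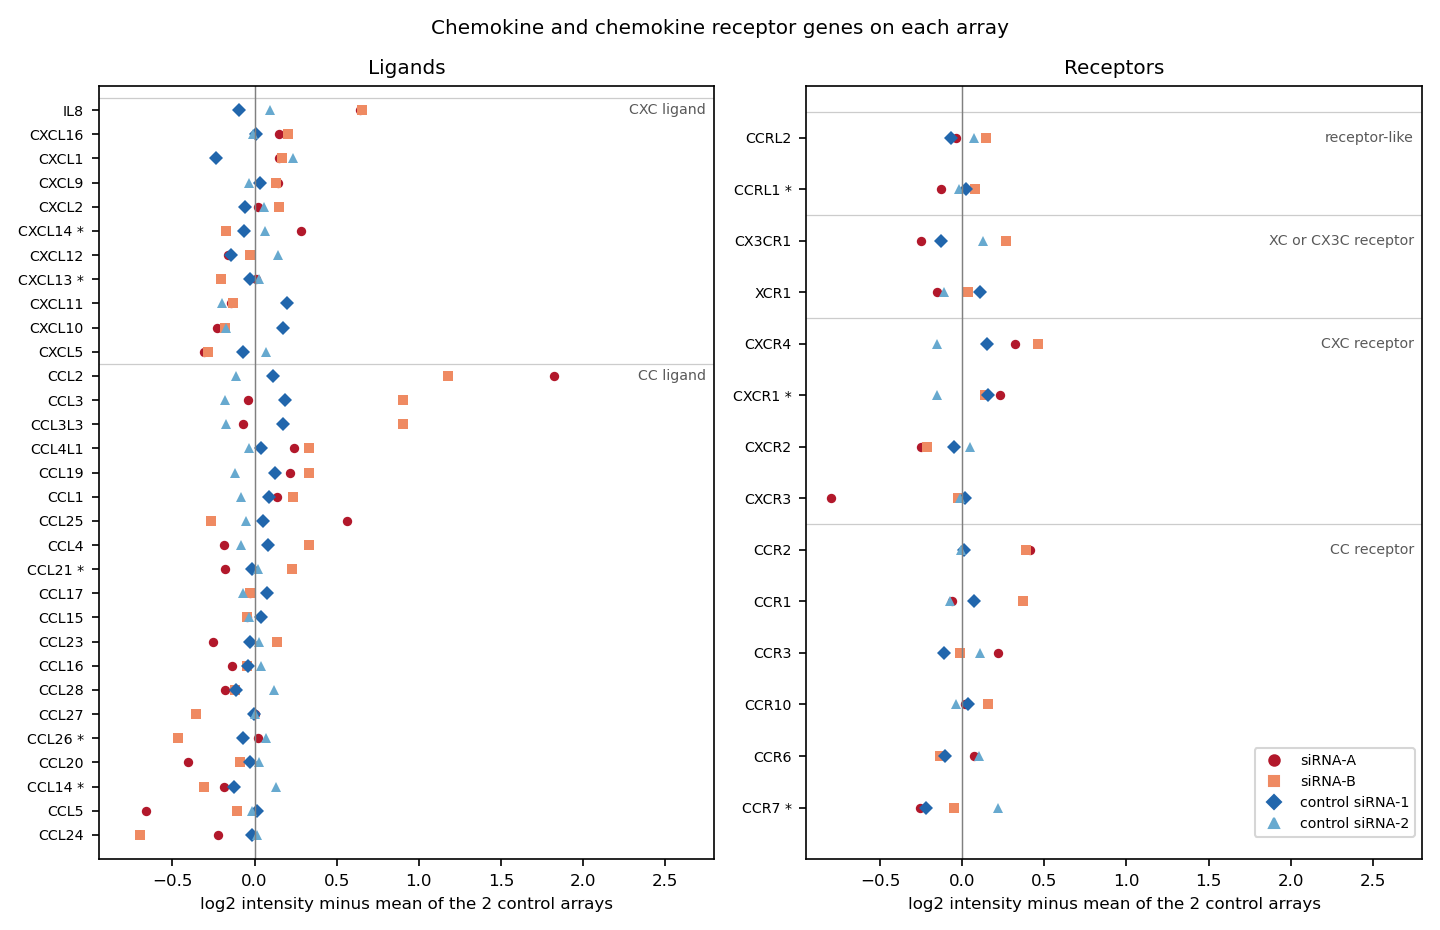
Log2 intensity of 45 of the 46 members on each array, with the mean of the 2 control arrays subtracted, for 31 ligands (left) and 14 receptors (right), ordered by log2 fold change within each role. Points are arrays, and an asterisk marks the 8 genes that were not well above background on all 4 arrays. CCL2 and IL8 stand to the right of both controls with either siRNA, whereas CCL3, CCL3L3 and CXCR3 show a distance between the 2 siRNAs.

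CCL2, the main ligand of CCR2, had the largest difference of all members. The probe A_23_P89431 on chromosome 17 at 32584050 to 32584109 (hg19, as are all probe positions) was printed on 10 spots per array. Its mean log2 intensity was 7.76 with siRNA-A, 7.12 with siRNA-B, 6.05 with control siRNA-1 and 5.82 with control siRNA-2. Both knockdown arrays were higher than both controls, and siRNA-A was higher than siRNA-B. The group means were 7.44 ± 0.46 after knockdown and 5.94 ± 0.16 in the controls (SD, n = 2), which gave a log2 fold change of 1.50 (SE 0.20, 95% confidence interval 1.05 to 1.95), or 2.83-fold (limma, adjusted p = 0.0405). Each of the 10 spots taken alone rose, with log2 fold changes between 1.26 and 1.63. The lowest single spot of siRNA-B had a log2 intensity of 6.71 and the highest single spot of either control 6.32. After background subtraction by the scanner software the signals were 193 with siRNA-A, 111 with siRNA-B, 38.8 with control siRNA-1 and 27.2 with control siRNA-2, so that the deposited intensity, from which no background was taken, gave the smaller difference. On that signal scaled between arrays the log2 fold change was 2.20 and the call was lost, and it was lost as well without control siRNA-1 (1.61) or without control siRNA-2 (1.39). CD14 was higher on the same arrays as CCL2, and its part in the result was not tested.

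IL8 was the only called CXC ligand. The probe A_32_P87013 on chromosome 4 at 74609265 to 74609324 gave log2 intensities of 8.07 with siRNA-A, 8.08 with siRNA-B, 7.34 with control siRNA-1 and 7.52 with control siRNA-2. The siRNA arrays lay closer to each other than the controls did, and the groups did not overlap. Means of 8.08 ± 0.0076 and 7.43 ± 0.13 (SD, n = 2) gave a log2 fold change of 0.65 (SE 0.12, 95% confidence interval 0.38 to 0.91), or 1.57-fold (limma, adjusted p = 0.149). IL8 was measured by 1 spot per array. Its call did not hold without siRNA-A (0.65), without siRNA-B (0.64) or without control siRNA-1 (0.55), nor on the unscaled background-subtracted signal (0.69).

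**Figure D2:**
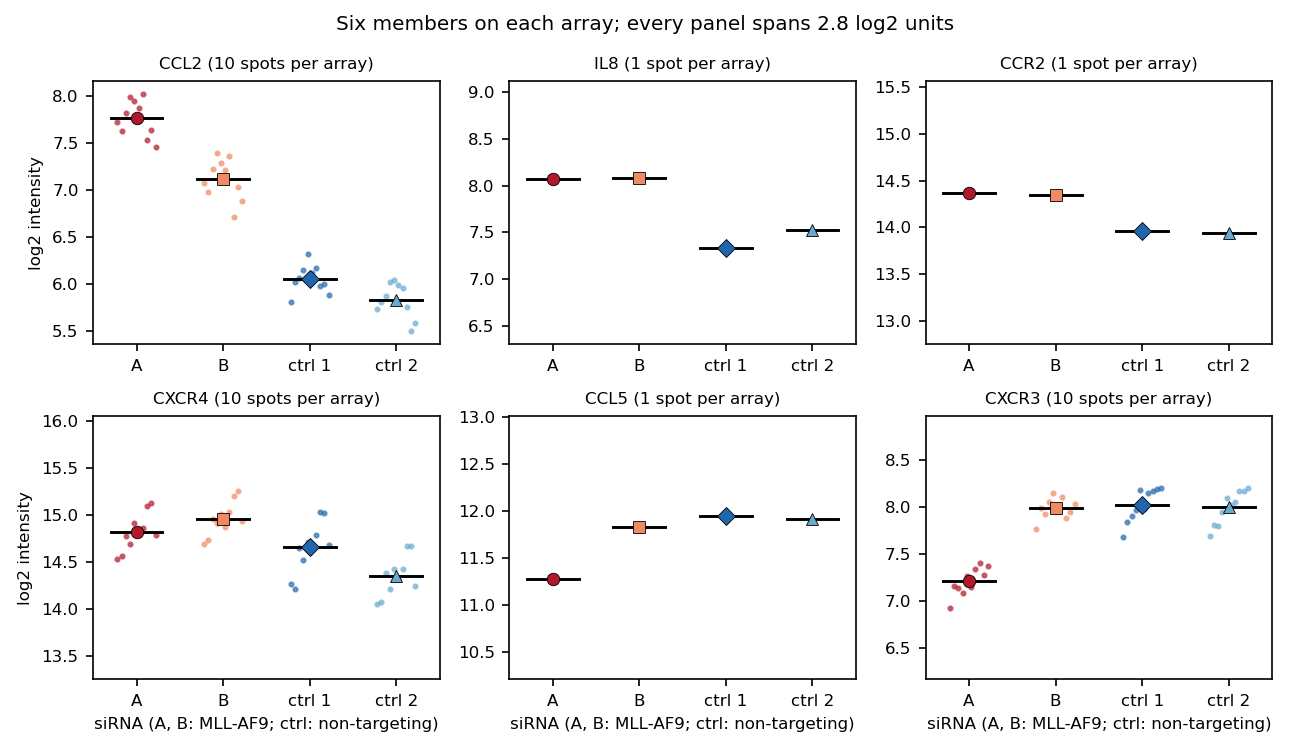
Log2 intensity of 6 members on the arrays of siRNA-A, siRNA-B and the 2 control siRNAs. Small dots are single spots where a probe was printed 10 times, larger symbols with bars are the array means, and every panel spans 2.8 log2 units. In CCL2, IL8, CCR2 and CXCR4 both knockdown arrays lie above both controls, whereas in CCL5 and CXCR3 the array of siRNA-A lies apart from the other arrays.

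Of the receptors of the called ligands, CCR2 lay just outside the threshold. Its probe A_23_P212354 on chromosome 3 at 46401916 to 46401975 had log2 intensities of 14.37 with siRNA-A, 14.34 with siRNA-B, 13.96 with control siRNA-1 and 13.95 with control siRNA-2. The groups were far apart compared with the arrays within them. The log2 fold change was 0.40 (SE 0.11, limma, adjusted p = 0.382), and another CCR2 probe, A_23_P324885, gave 0.28 (SE 0.11) with both knockdown arrays higher as well. CCR2 passed the threshold in 5 of 13 alternative settings, among them quantile normalization (0.47), and its log2 fold change lay between 0.39 and 0.47 in all 13.

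CXCR1 and CXCR2 are the receptors of IL8. CXCR2, which also binds CXCL1, CXCL2 and CXCL5, had log2 intensities of 9.14 with siRNA-A, 9.18 with siRNA-B, 9.34 with control siRNA-1 and 9.44 with control siRNA-2. Both knockdown arrays were below both controls, and the log2 fold change was -0.23 (SE 0.11, adjusted p = 0.667). CXCR1 was well above background on 1 knockdown and 1 control array, with values of 5.61, 5.52, 5.54 and 5.23 in the same order, and its groups overlapped.

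CXCR4, the bone marrow homing receptor, was printed on 10 spots. Mean log2 intensities were 14.82 with siRNA-A, 14.96 with siRNA-B, 14.66 with control siRNA-1 and 14.35 with control siRNA-2. Both knockdown arrays were higher than both controls, but siRNA-A was closer to control siRNA-1 than the controls were to each other. The log2 fold change of 0.39 (SE 0.13, limma, adjusted p = 0.520) did not pass the threshold and was 0.24 without control siRNA-2 and 0.54 without control siRNA-1, and 1 of 10 spots passed both criteria of the study's methods for single spots, although all 10 had positive log2 fold changes between 0.29 and 0.51. Its ligand CXCL12 had overlapping groups and a log2 fold change of -0.096 (SE 0.13).

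**Figure D3:**
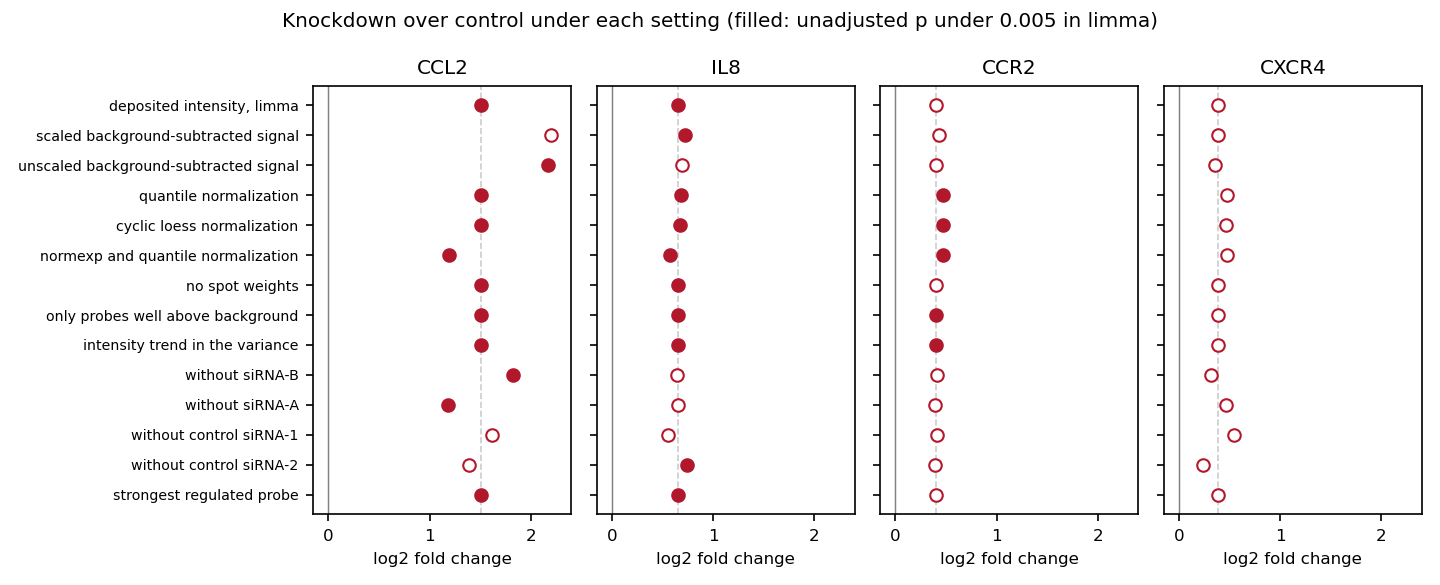
Log2 fold change, knockdown over control, of CCL2, IL8, CCR2 and CXCR4 in the reported fit (top line, dashed) and in each alternative setting. Filled symbols mark an unadjusted p under 0.005 in limma. All values are above 0, and CCL2 passed in 10, IL8 in 9, CCR2 in 5 and CXCR4 in 0 of 13 alternatives.

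Several members differed between siRNA-A and siRNA-B, which are compared here with the same 2 control arrays. The knockdown arrays differed from each other by more than 0.5 on the log2 scale in 8 members (CCL2, CCL3, CCL3L3, CCL4, CCL5, CCL25, CXCR3 and CX3CR1), and the control arrays in 0. With both siRNAs the value lay above the control mean in 13 members and below it in 16, and the siRNAs lay on opposite sides of it in the others (siRNA-B above in 10, siRNA-A above in 7). CCL3, a ligand of CCR1, had log2 intensities of 13.54 with siRNA-A, 14.48 with siRNA-B, 13.76 with control siRNA-1 and 13.40 with control siRNA-2. Only the array of siRNA-B stood above both controls (0.90 over their mean, against -0.038 for siRNA-A), and the log2 fold change of 0.43 (SE 0.27, adjusted p = 0.752) was not called. The near-identical copy CCL3L3 behaved likewise, with 10.75, 11.72, 10.99 and 10.65 in that order and a log2 fold change of 0.42 (SE 0.27, adjusted p = 0.764), but transcripts of these copies may bind the same probe and the genes are uncertain as separate measurements. CCL4L1, a copy of CCL4, had 6.70, 6.79, 6.50 and 6.43, with a log2 fold change of 0.28 (SE 0.11, adjusted p = 0.580) and the same uncertainty. Over 13 alternative settings CCL4L1 lay between 0.18 (normexp with quantile normalization) and 0.33. CCL4 itself had overlapping groups (0.072, SE 0.17).

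CCL5, which binds CCR1 and is known as a product of T cells and activated monocytes, had its lowest level with siRNA-A. Its log2 intensities were 11.28 with siRNA-A, 11.83 with siRNA-B, 11.95 with control siRNA-1 and 11.92 with control siRNA-2. Here siRNA-A stood well below the controls and siRNA-B only slightly, with a log2 fold change of -0.38 (SE 0.17, adjusted p = 0.631). CXCR3, the receptor of the interferon-induced ligands CXCL9, CXCL10 and CXCL11, was 0.80 below the control mean with siRNA-A (7.21) while siRNA-B (7.99) lay beside control siRNA-1 (8.03) and control siRNA-2 (8.00). The 10 spots of siRNA-A had log2 intensities of at most 7.41, below the lowest spot on any other array, 7.69. The log2 fold change of CXCR3 was -0.42 (SE 0.22, adjusted p = 0.694), and another probe, A_33_P3389230, gave -0.13 with overlapping groups. Without siRNA-B, both CCL5 (-0.66) and CXCR3 (-0.80) passed the threshold, and without siRNA-A they were -0.11 and -0.025.

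CCL24, an eosinophil attractant that binds CCR3, was the member with the largest negative value. It had log2 intensities of 11.45 with siRNA-A, 10.98 with siRNA-B, 11.66 with control siRNA-1 and 11.69 with control siRNA-2. Both knockdown arrays were lower, siRNA-B more so, with a log2 fold change of -0.46 (SE 0.16, limma, adjusted p = 0.511). Without siRNA-A it passed the threshold at -0.70, and without siRNA-B it was -0.22. CCL26, which binds CCR3 as well, had 5.81, 5.32, 5.71 and 5.86 in the same order and was well above background on 1 knockdown array. Its groups overlapped, and the log2 fold change was -0.22 (SE 0.16), against -0.96 and -0.99, not called, on the scaled and unscaled background-subtracted signal.

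Among the other CC ligands, CCL19, a ligand of CCR7, had log2 intensities of 6.17 with siRNA-A, 6.29 with siRNA-B, 6.08 with control siRNA-1 and 5.83 with control siRNA-2. CCL20, the ligand of CCR6, had 6.69, 7.00, 7.06 and 7.12, and CCL1, the ligand of CCR8, 5.81, 5.91, 5.75 and 5.58 in that order. The groups of these ligands did not overlap, with log2 fold changes of 0.27 for CCL19, -0.25 for CCL20 and 0.19 for CCL1, and no unadjusted p was below 0.05. Over 13 alternative settings CCL19 lay between 0.15 (without control siRNA-2) and 0.45 (scaled background-subtracted signal). CCL20 lay between -0.40 (without siRNA-B) and -0.090 (without siRNA-A). CCL1 lay between 0.078 and 0.27, with 0.10 on omission of control siRNA-2. In all, 20 of 26 CC ligand names could be analysed. The groups did not overlap in 11 of these 20, against 36.2% of all genes, and the median log2 fold change was -0.039.

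Of 14 CXC ligand names 11 could be analysed. Their median log2 fold change was 0.054, and the groups did not overlap in 5 of 11, against the same 36.2%. CXCL5, a neutrophil attractant, had log2 intensities of 9.47 with siRNA-A, 9.50 with siRNA-B, 9.71 with control siRNA-1 and 9.85 with control siRNA-2. It was lower on both knockdown arrays, with a log2 fold change of -0.30 (SE 0.11, limma, adjusted p = 0.565). CXCL10 had 7.24, 7.29, 7.64 and 7.29, so that only control siRNA-1 stood clearly above the others. CXCL16, a ligand that also occurs as a membrane-bound scavenger receptor, had both knockdown arrays higher, with a log2 fold change of 0.17 (SE 0.11, adjusted p = 0.755).

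CXCL1, CXCL2 and CXCL5 attract neutrophils through CXCR2 as IL8 does, and their genes lie beside IL8 on chromosome 4. None of them was called. CXCL1 gave log2 intensities of 7.64 with siRNA-A, 7.65 with siRNA-B, 7.25 with control siRNA-1 and 7.72 with control siRNA-2, and CXCL2 gave 7.26, 7.38, 7.18 and 7.29. The groups overlapped in both genes, and the log2 fold changes were 0.16 (SE 0.16) and 0.083 (SE 0.12). The 95% confidence intervals were -0.20 to 0.51 for CXCL1 and -0.18 to 0.35 for CXCL2, and the difference of either gene from IL8 was not tested. One CXCL1 probe and one CXCL2 probe shared 32 of 37 aligned bases, neither of them the brightest of its gene.

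The promoters of these 4 ligands are shown for description, chosen once it was known that IL8 was called and its neighbours were not. A link between promoter motifs and the calls was not tested. The sequences are from RefSeq (GRCh38.p14) and run 5′ to 3′ on the strand of the gene over the 150 bases before the annotated start, at chr4:73740419-73740568 for IL8, chr4:73869243-73869392 for CXCL1, chr4:74099196-74099345 (minus strand) for CXCL2 and chr4:73998678-73998827 (minus strand) for CXCL5. Capitals mark matches to TGACTCA, a motif of AP-1, to GGNNTTTCC, a motif of NF-kB, and to TATAAA, a form of the TATA box.
IL8: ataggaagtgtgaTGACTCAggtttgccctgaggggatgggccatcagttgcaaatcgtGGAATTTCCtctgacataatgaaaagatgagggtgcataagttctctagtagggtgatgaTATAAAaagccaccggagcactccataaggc
CXCL1: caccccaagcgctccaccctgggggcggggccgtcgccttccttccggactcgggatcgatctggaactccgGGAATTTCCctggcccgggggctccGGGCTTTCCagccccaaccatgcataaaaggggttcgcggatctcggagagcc
CXCL2: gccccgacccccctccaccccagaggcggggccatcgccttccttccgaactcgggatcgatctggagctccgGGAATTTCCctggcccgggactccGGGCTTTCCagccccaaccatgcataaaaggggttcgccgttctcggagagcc
CXCL5: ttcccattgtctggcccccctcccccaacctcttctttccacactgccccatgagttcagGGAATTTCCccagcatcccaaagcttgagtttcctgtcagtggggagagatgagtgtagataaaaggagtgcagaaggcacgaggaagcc

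All 4 promoters held GGAATTTCC, at 91 to 83 bases before the start in IL8, 78 to 70 in CXCL1, 77 to 69 in CXCL2 and 90 to 82 in CXCL5. CXCL1 and CXCL2 held GGGCTTTCC as well, in both at 53 to 45 bases before the start. IL8 alone among the 4 held the exact strings TGACTCA, at 137 to 131, and TATAAA, at 31 to 26. CXCL1, CXCL2 and CXCL5 each held the similar ATAAAAGG in the stretch shown, which was not among the motifs searched. Both strands of the 250 bases before the start were searched, with TTGCNNAA (C/EBP) added, which matched only in CXCL2, outside the stretch shown, and no matches overlapped. Of 35116 promoters in the reference table, GGNNTTTCC was in 5.48%, TGACTCA in 4.2%, TATAAA in 10.7% and TTGCNNAA in 9.05%. Entries were found for 33 of the 46 members with 46 promoters in all, of which 8 held GGNNTTTCC, 7 TGACTCA, 13 TATAAA and 9 TTGCNNAA. These matches describe letters and not binding sites, and variants of the motifs were not searched. CCL2 had no entry.

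None of the remaining receptors was called. CCR1, which binds CCL3 and CCL5, had a log2 fold change of 0.16 (SE 0.15), with siRNA-B (12.29) above siRNA-A (11.86) and the controls (12.00 and 11.85). CX3CR1, the receptor of CX3CL1 on patrolling monocytes, had 0.0069 (SE 0.18). Their 95% confidence intervals were -0.19 to 0.50 for CCR1 and -0.39 to 0.41 for CX3CR1, and differences within these intervals remain possible. Of 15 receptors limma called 0, and 2 (CCR2 and CXCR4) had an unadjusted p under 0.05, against 1.33% and 8.00% of all genes. The groups did not overlap in 5 of 15, against 36.2% of all genes, among them CCR2 and CXCR4, higher, and CXCR2 and CXCR3, lower on the knockdown arrays. The ligands CCL14, CCL15, CCL16, CCL17, CCL21, CCL23, CCL25, CCL27, CCL28, CXCL9, CXCL11, CXCL13 and CXCL14 and the receptors CCR3, CCR6, CCR7, CCR10, XCR1, CCRL1 and CCRL2 had log2 fold changes between -0.25 (CCL14, called at -1.78 on the scaled background-subtracted signal) and 0.15 (CCL25).

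By position, 11 analysed CC ligands lay between 32584050 and 34539758 on chromosome 17, and CCL2 was the 1 called, against 1.33% of all genes. Its neighbour CCL1 had 0.19, and CCL5, CCL16, CCL14, CCL15, CCL23, CCL3, CCL4, CCL3L3 and CCL4L1 had log2 fold changes between -0.38 and 0.43. The groups did not overlap in 7 of the 11, against 36.2% of all genes. On chromosome 4, 8 CXC ligands lay between 74609265 and 78532705, with IL8 called, against 1.33% of all genes. The groups overlapped in 4 of these 8, and over all genes they did not overlap in 36.2%. The 6 receptor genes between 46062926 and 46450781 on chromosome 3 included 0 called ones, against 1.33% of all genes. Among them CCR2 was higher on both knockdown arrays.

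Signalling downstream of the receptors was described with 2 lists. Of 30 analysed G protein, arrestin, receptor kinase and RGS genes, 0 were called by limma, and 2 had an unadjusted p under 0.05, against 1.33% and 8.00% of all genes. RGS16, which shortens G protein signals, had log2 intensities of 9.61 with siRNA-A, 10.02 with siRNA-B, 10.34 with control siRNA-1 and 10.36 with control siRNA-2, lower on both knockdown arrays, with a log2 fold change of -0.53 (SE 0.14, adjusted p = 0.382). RGS18 had 10.99, 11.33, 10.76 and 10.86, with 0.35 (SE 0.14, adjusted p = 0.578), and the receptor kinase ADRBK2 had 12.23, 12.02, 11.77 and 11.94, with 0.27 (SE 0.12, adjusted p = 0.645).

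Of 43 analysed effectors of migration, FGR was the 1 called, against 1.33% of all genes. FGR encodes a Src-family kinase of myeloid cells that acts downstream of chemokine receptors and integrins. Its log2 intensities were 11.05 with siRNA-A, 11.04 with siRNA-B, 10.53 with control siRNA-1 and 10.40 with control siRNA-2. Both knockdown arrays were higher, with a log2 fold change of 0.58 (SE 0.11, limma, adjusted p = 0.182). The call was lost on the scaled background-subtracted signal (0.65) and on omission of any single array (0.52 to 0.64). PREX1, an exchange factor for Rac, had 13.13, 12.99, 12.78 and 12.71 in that order, with 0.32 (SE 0.11, adjusted p = 0.536). RAC2, the Rac GTPase of blood cells, had 13.70 with siRNA-A against 14.67 with siRNA-B, 14.55 with control siRNA-1 and 14.60 with control siRNA-2, so that siRNA-A alone was lower (-0.39, SE 0.26, adjusted p = 0.770). At an unadjusted p under 0.05, 5 effectors were higher and 0 lower, against 3.26% and 4.74% of all genes, and the median log2 fold change was 0.028.

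**Figure D4:**
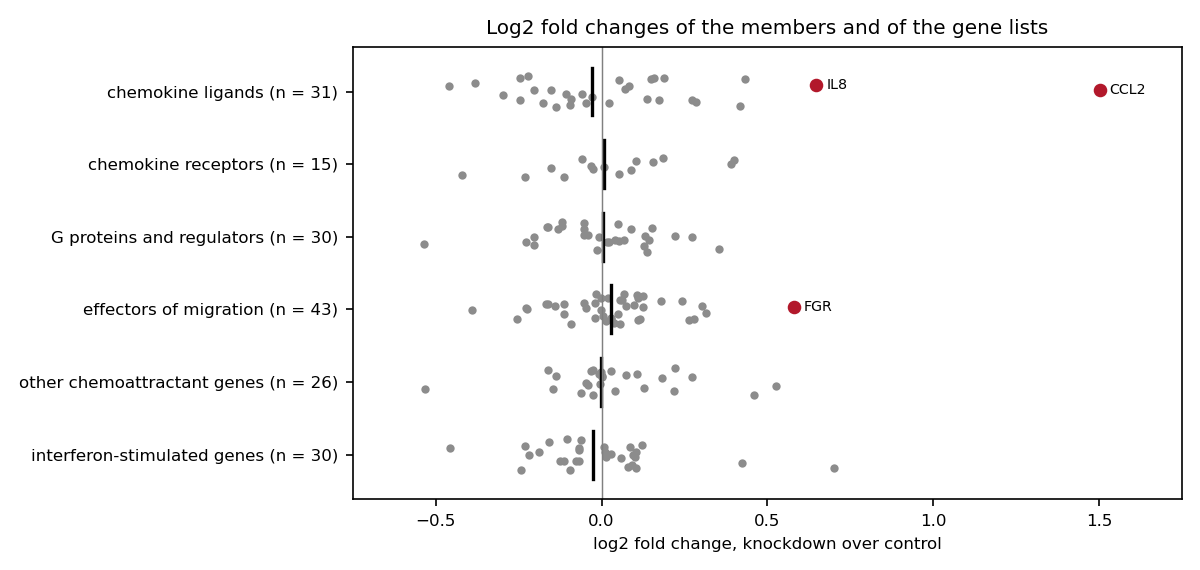
Log2 fold change, knockdown over control, of every analysed gene in 6 groups, with n in brackets. Each dot is a gene by its brightest probe, red dots passed an unadjusted p under 0.005 in limma, and black bars are medians. The medians lie between -0.030 and 0.028 with all arrays, and the called genes CCL2, IL8 and FGR lie on the side of higher levels after knockdown.

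Other chemoattractants and their receptors held 26 analysed genes, of which limma called 0, against 1.33% of all genes. At an unadjusted p under 0.05 there was 1, against 8.00% of all genes. This was CAMP, the cathelicidin precursor, with log2 intensities of 8.16 with siRNA-A, 8.38 with siRNA-B, 7.66 with control siRNA-1 and 7.96 with control siRNA-2, and a log2 fold change of 0.46 (SE 0.14, adjusted p = 0.456). GPR183, an oxysterol receptor that guides immune cells, had 9.93, 10.62, 10.15 and 9.35, with overlapping groups and 0.53 (SE 0.28). The defensin DEFB1 had 14.35, 14.05, 13.82 and 14.03, with 0.27 (SE 0.14). The largest negative value was that of PPBP, a platelet chemokine precursor, at -0.53 (SE 0.24, adjusted p = 0.627). Both knockdown arrays lay below control siRNA-1 (6.18) and control siRNA-2 (5.21), and the gene was well above background on the array of control siRNA-1 alone. All 30 interferon-stimulated genes were analysed, which were listed because CXCL9, CXCL10 and CXCL11 are interferon-induced. Limma called 0 of them and 1 had an unadjusted p under 0.05, against 1.33% and 8.00% of all genes. The groups did not overlap in 3, all lower after knockdown, against 36.2% of all genes. IFI44L had 12.18, 12.75, 12.25 and 11.28 on the arrays of siRNA-A, siRNA-B, control siRNA-1 and control siRNA-2, so that control siRNA-2 was the lowest. Its log2 fold change was 0.70 (SE 0.29, adjusted p = 0.605), and its groups overlapped. GBP2 had 7.24, 8.34, 8.46 and 8.04 in the same order (-0.46, SE 0.31) and IFI44 11.17, 12.02, 11.68 and 10.66 (0.42, SE 0.34), both with overlapping groups.

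The other probes of 13 members, 14 in number, gave 0 calls, and 10 of the 14 had the sign of the brightest probe. The 17 names without an analysed probe were CCL7, CCL8, CCL11, CCL13, CCL18, CCL22, CCR4, CCR8, CCR9, CX3CL1, CXCL3, CXCL6, CXCL17, CXCR5, CXCR6, CXCR7 and XCL1. None of their spots was well above background on any array, and no count over the members includes them. Among them are other ligands of CCR2 (CCL7, CCL8 and CCL13). The number of arrays limits the precision: with 2 arrays against 2, an exact two-sided permutation test of a single gene cannot go below 0.333, and the limma p rest on a variance shared across probes. Each array held a pool, and the 2 pools of a group had received different siRNAs. These p therefore measure the spread between pools of different siRNAs and not between independent experiments.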

How the data were processed

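Gene expression was measured on 4 single-colour Agilent Human Whole Genome 4x44K v2 arrays, each hybridised with RNA pooled from 5 experiments. Per the submitters' processing notes, spots were read with Agilent Feature Extraction 10.5.1.1 and analysed with limma. The authors deposited for every spot the median pixel intensity, uncorrected for background and without normalization between arrays, which equalled the scanner's median signal in 100% of spots, and a quality weight, whose setting is not given in the sources used here. The background-subtracted signal of the scanner tables, an intensity as deposited, served as an alternative.

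The arrays held 44495 spots. Excluding 1377 control spots and those with a zero weight on any array left 33323, and log2 values of identical spots were averaged per probe. Differences between groups over the resulting 26219 probes were estimated in limma (version 3.58.1, R 4.3.3) using the deposited weights, with no covariate. Genes were called at an unadjusted two-sided p under 0.005, as in the study's methods, and p were adjusted by Benjamini-Hochberg over every probe. Among the members' spots 8 had a weight of 0.5 on an array. Saturated spots numbered 0. The criteria for single spots were the same p and a p under 0.05 over identical spots. Gene names are those of the array. The number of arrays limits the precision.

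Members, gene lists and tests were chosen with earlier results of these data known. Values on all arrays are given for called members and for the receptors and ligands of called members. They are also given for the 15 largest differences among members not called that were well above background on both arrays of a group. From other lists they are given for called genes and the 3 largest differences among genes well above background on both arrays of a group. CXCL1, CXCL2, CXCL16, CXCL12, CCL4, CCR1, CX3CR1 and PPBP were named beyond this rule after their values were seen, and MLL, MLLT3, CD14, MPO, CD68, CD4, CSF1R, HBB and CDH1 as checks of the target and the cells. Counts cover all analysed genes, and some of these genes are not reported here by name. Alternatives were the background-subtracted signal scaled to the 75th percentile or unscaled, quantile, cyclic loess and normexp (offset 50) with quantile normalization, no weights, a filter on probes not well above background, an intensity trend in the variance, the strongest regulated probe of each gene, other p thresholds, and the omission of each array. The pipeline was tested on simulated data. RT-qPCR, immunoblot and functional data of the study were not analysed here.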

Additional observations from a re-analysis of the deposited data

How the results depend on the processing

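Of the settings tried, the unadjusted p under 0.05 moved the count of called members from 2 to 7 and the adjusted p under 0.05 to 1, while other processings of the signal gave 2 or 3. On the scaled and the unscaled background-subtracted signal CCL14, not well above background on either knockdown array, was called with log2 fold changes of -1.78 and -1.81, beside IL8 in the former and CCL2 in the latter. Omitting single arrays gave 0 to 3 called members: 0 without control siRNA-1, 1 (IL8) without control siRNA-2, 3 (CCL2, CCL5 and CXCR3) without siRNA-B and 2 (CCL2 and CCL24) without siRNA-A. The members' median log2 fold change then lay between -0.044 and 0.046. Without siRNA-B the direction was turned of CCL3 (-0.038 to 0.90 over the omissions), CCL3L3 (-0.068 to 0.91) and CCL26 (-0.46 to 0.021). Of the G proteins and regulators 1 was called under the filter on dim probes, with 0 to 1 on omission of arrays. Of the effectors 0 were called on the scaled background-subtracted signal, and 0 to 1 on omission of arrays (without siRNA-B 1 that was not FGR, and 0 without siRNA-A or without either control array). Of the other chemoattractant genes 1 was called after normexp and 1 by the strongest regulated probe, with 0 to 1 on omission of arrays, and their median log2 fold change then lay between 0.012 and 0.089. The medians of the G proteins and regulators (-0.11 to 0.12), the effectors (-0.035 to 0.093) and the interferon-stimulated genes (-0.14 to 0.12) took either sign on omission of single arrays. The cause of these moves was not tested. With 1 array left in a group, its spread was taken to equal that of the other group. Other processings moved the median of all probes to between -0.058 and 0.011. No paired analysis was possible because the knockdown and control siRNAs share no number. Low signal over background limits what can be said of the 8 members that were not well above background on every array.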
